A study of Homo sapiens with 6 samples.

Results

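Genes of mucins, of other proteins that goblet cells release and of the enzymes that build mucin O-glycans were followed in HT-29 colon adenocarcinoma cells after 5-Aza treatment. The group holds 32 genes, out of 19775 genes with a probe set of their own on the HGU133 Plus2.0 microarrays. They were taken by gene symbol from the annotation of the array, together with the 64 probe sets that name 1 of them alone (of 54613 tested). Probe sets that name several genes were not assigned to any gene. Each gene is represented by its main probe set, the one with the highest mean log2 signal among those that name this gene alone. A probe set with the suffix _x_at, which holds probes that also match other transcripts, stood in only for genes lacking any other. The study asked which genes silenced by DNA methylation in colon tumors return when methylation is reduced. To this end HT-29 cells were kept for 72 hours with 10 µM 5-Aza (5-aza-2′-deoxycytidine) in medium without FCS (3 arrays). The control cells received the solvent alone, PCR-grade water and acetate in equal parts (3 arrays). HT-29 is 1 established cell line, and the sources used here do not tell if replicate arrays derive from different cultures. The p-values therefore reflect no more than the variation among the 6 arrays.

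Mucins are large proteins whose serine- and threonine-rich stretches carry dense O-linked sugar chains. Goblet cells of the colon release the gel-forming kind, above all MUC2, into the mucus layer together with trefoil peptides and proteins such as FCGBP, while membrane mucins stay on the surface of the epithelial cell. GALNT enzymes attach the first sugar (GalNAc) in the Golgi apparatus, and C1GALT1, B3GNT6 and GCNT3 then build the different cores of the chain. 5-Aza is a cytidine analog that traps DNA methyltransferases on newly made DNA, so that methyl groups are lost at CpG sites as cells divide.

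CpG sites, the places where this inhibitor reduces methylation, are unevenly spread over the promoters of these genes. An entry was found in the RefSeq promoter table (build GRCh38.p14) for 22 of the 32 genes. The motif CG, which reads the same on both strands, was counted in the 250 bases before each start site. It occurs at least once in 93.6% of the 27305 promoters of the table and at least 10 times in 51.9% of them, with a median of 11 over all promoters and of 6 over the 22 genes. Only MUC1 (11 sites), GALNT3 (26), GALNT7 (20), GALNT12 (21), B3GNT7 (28) and C1GALT1 (21) had at least 10. The stretches below are shown because B3GNT7, C1GALT1, GALNT7 and SPINK1 are the genes with an entry whose treated and control arrays did not overlap, and because MUC2 is the main mucin of colonic mucus. They run 5′ to 3′ on the strand of the gene, with each CG in capitals, from chr2:231395460-231395709 (plus strand) for B3GNT7, chr7:7182294-7182543 (plus strand) for C1GALT1, chr4:173168561-173168810 (plus strand) for GALNT7, chr5:147831672-147831921 (minus strand) for SPINK1 and chr11:1074624-1074873 (plus strand) for MUC2.
B3GNT7: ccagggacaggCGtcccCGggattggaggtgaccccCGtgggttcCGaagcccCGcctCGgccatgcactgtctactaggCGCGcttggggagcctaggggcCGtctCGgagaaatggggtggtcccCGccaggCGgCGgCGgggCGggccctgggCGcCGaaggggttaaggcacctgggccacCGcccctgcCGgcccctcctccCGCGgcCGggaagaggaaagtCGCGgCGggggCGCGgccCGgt
C1GALT1: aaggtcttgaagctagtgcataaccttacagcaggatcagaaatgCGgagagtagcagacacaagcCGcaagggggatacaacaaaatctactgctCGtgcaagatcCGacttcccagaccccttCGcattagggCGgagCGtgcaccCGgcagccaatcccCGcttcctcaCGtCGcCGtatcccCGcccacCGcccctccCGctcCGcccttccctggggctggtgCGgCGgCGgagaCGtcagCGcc
GALNT7: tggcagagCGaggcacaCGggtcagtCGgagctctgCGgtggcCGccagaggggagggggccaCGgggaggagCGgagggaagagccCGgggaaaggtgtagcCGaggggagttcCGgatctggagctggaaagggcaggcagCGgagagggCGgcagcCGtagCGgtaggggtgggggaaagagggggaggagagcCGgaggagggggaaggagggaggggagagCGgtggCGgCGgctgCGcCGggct
SPINK1: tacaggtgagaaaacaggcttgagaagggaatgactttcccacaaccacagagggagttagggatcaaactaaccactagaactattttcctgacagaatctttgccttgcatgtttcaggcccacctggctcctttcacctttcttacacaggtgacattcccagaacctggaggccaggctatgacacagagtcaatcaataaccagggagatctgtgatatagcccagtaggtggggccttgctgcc
MUC2: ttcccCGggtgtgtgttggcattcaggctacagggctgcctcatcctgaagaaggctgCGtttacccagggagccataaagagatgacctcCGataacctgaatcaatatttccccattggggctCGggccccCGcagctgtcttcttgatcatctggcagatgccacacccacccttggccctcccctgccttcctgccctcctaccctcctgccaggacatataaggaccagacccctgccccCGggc

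The stretch before B3GNT7 holds 28 CG, a number that 15.5% of all promoters in the table reach. Those of C1GALT1, which lay above its controls, and GALNT7, which lay below, hold 21 and 20 (reached by 29.8% and 32.1%). SPINK1 has 0 and MUC2 has 6 (reached by 61.3%). These counts describe the sequence, and the methylation of these sites was not analysed here.

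The arrays had similar overall values, with correlations from 0.926 to 0.934 between any 2 of them. The probe sets of a bacterial transcript (TrpnX) reached at most 22.6 to 42 on the 6 arrays, and this level is taken here as background on each array. Of the 10 colon epithelium markers 9 were above it on every array of at least 1 group, CDX1 being the exception. Of the markers of leukocytes 1 of 3 passed in this way, of fibroblasts 2 of 5 and of endothelium 1 of 3. COL1A1 of the fibroblast list had 216 to 390 and PECAM1 of the endothelium list 117 to 200 over the 6 arrays. CD3E (leukocytes) and LUM (fibroblasts) passed through the treated arrays alone. TrpnX is therefore a lenient limit, and a signal above it does not by itself show that a gene is expressed. The summed signal of 14 enterocyte markers was 6132 to 7180 on treated and 6241 to 7896 on control arrays. That of 10 enteroendocrine markers was 640 to 781 and 315 to 480, with SST and GCG, both named by the study as selected with these arrays, the genes that differed at an unadjusted p under 0.025. For ACTB the 3′ control probe set exceeded the 5′ one, a measure of how intact the RNA was, by 0.64 to 0.80 on treated and 0.46 to 0.60 on control arrays (log2 scale). For GAPDH the same difference was 0.14 to 0.23 on treated and 0.10 to 0.16 on control arrays, which overlapped. The part of RNA quality in the values that follow was not tested. In cell cultures measured in bulk, fewer cells of a type and less RNA per cell cannot be told apart.

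In 27 of the 32 genes the signals of 5-Aza-treated and control cells overlapped. TFF1, a trefoil peptide, and B3GNT7, which extends O-glycans, had higher signals in 5-Aza-treated HT-29 cells at an unadjusted p under 0.025 in limma, and 0 genes had lower ones. Among all genes 3.0% were higher and 0.9% lower at this threshold (594 and 178 genes), a split that median centring of the arrays turned to 330 higher and 617 lower. After adjustment over the whole array 0 genes had a p under 0.05 (smallest adjusted p = 0.571 in limma), and 0.0% of the 54613 probe sets did. With the looser limit of 0.05 and no adjustment, 2 genes were higher and 1, the secreted trypsin inhibitor SPINK1, was lower, against 5.29% and 1.87% of all genes. All treated arrays exceeded all control arrays for TFF1, B3GNT7 and C1GALT1, against 9.91% of all genes. Every treated array lay below every control array for SPINK1 and GALNT7, against 6.9% of all genes. The smallest p that an exact permutation test (two-sided) of 3 arrays against 3 can give is 0.1, which is its value for these 5 genes.

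The log2 fold change (treated minus control) was positive for 15 and negative for 17 of the 32 genes, with a median of -0.032 where all genes had 0.038. Of all genes 10853 were positive (54.9%, the 32 genes 46.9%) and 8922 negative. Centring each array on its median moved the median of all genes to -0.15 and that of the 32 genes to -0.22, with 12 positive and 20 negative. Under this scaling TFF1 and B3GNT7 still lay above their controls, C1GALT1 overlapped and 8 genes lay below. Among all genes it left 6708 positive and 13067 negative, and the share lying below all controls was not computed. By role, the median was 0.38 for the 4 gel-forming mucins, 0.008 for the 8 membrane mucins and 0.68 for the 3 trefoil factors. It was -0.029 for 6 other secreted proteins, -0.34 for AGR2, AGR3 and CREB3L1, and -0.032 for the 8 O-glycosylation enzymes. Under median centring and quantile normalization the membrane mucins had -0.18 and -0.11, and the sign of the other role medians stayed the same. These role groups are small, and MUC2 and TFF2 enter the gel-forming and trefoil medians with wide errors. A total of 25 genes had signals above TrpnX on all arrays of at least 1 group. MUC3A, MUC4, MUC5B, MUC16, CLCA1, ZG16 and B3GNT6 did not with their main probe sets, and no direction is read from these. They also enter the medians of the gel-forming mucins, membrane mucins, other secreted proteins and O-glycosylation enzymes. No direction is read from those medians either. Without the 7 genes at background the log2 fold change was positive for 9 and negative for 16 genes, with a median of -0.11. Of these 25 genes, 23 were above TrpnX on all 6 arrays. MUC17 and TFF2, both positive, passed through the treated arrays alone, where their mean signal was higher. Over all 64 probe sets, 32 values were positive and 32 negative, 7 probe sets lay above and 4 below their controls, and 4 were higher and 2 lower at the unadjusted threshold of 0.025. Among all probe sets 9.29% lay above and 5.22% below, and 2.97% were higher and 1.05% lower. Of the 19 genes with more than 1 probe set, 8 had probe sets of opposite sign.

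**Figure D1:**
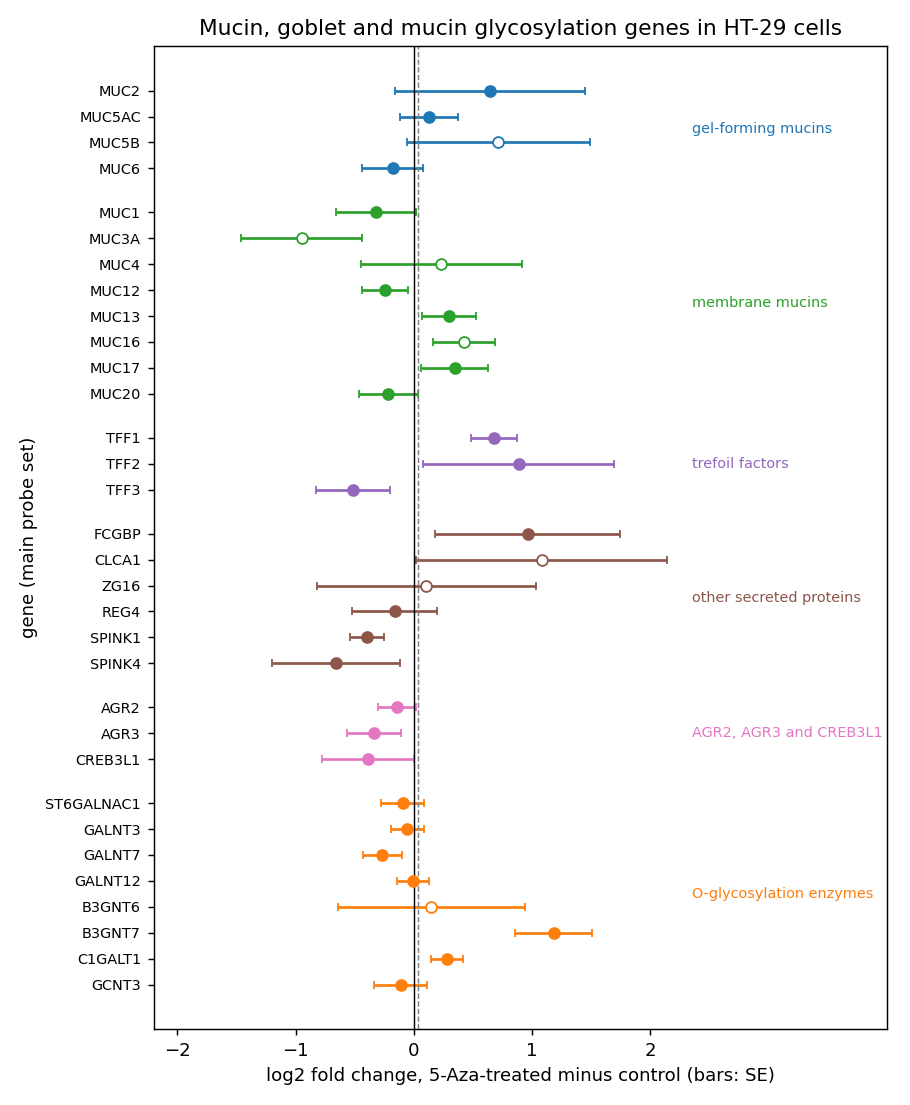
Log2 fold change (5-Aza-treated minus control, x axis) of the main probe set of each of the 32 genes (y axis, coloured by role), with bars for the SE of limma (n = 3 arrays per group). Open circles are the 7 genes whose main probe set was not above TrpnX on all arrays of a group and the dashed line is the median of all genes (0.038). B3GNT7 at 1.18 and TFF1 at 0.68 lie far from 0 for their SE, whereas MUC2, TFF2, FCGBP and CLCA1 have wide bars.

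Among the gel-forming mucins, MUC2 had signals of 282, 249 and 311 on the treated arrays and of 292.5, 50.2 and 386 on the control arrays. All treated arrays lay inside the range of the controls, where control replicate 2 was far below the others. The log2 fold change was 0.64 (SE 0.80, adjusted p = 0.888 in limma), and without control replicate 2 it was -0.26. MUC5AC, a gastric mucin that many colon tumor cells make, had 1969, 1523 and 2508 on treated and 1633, 1659 and 2135 on control arrays with its main probe set (214385_s_at). These overlapped (log2 fold change 0.13, SE 0.25). Its weaker probe sets gave larger differences. With 217187_at the signals were 475, 442 and 538 after treatment and 146, 285 and 397 in control cells, every treated array being higher (log2 0.92, SE 0.39, adjusted p = 0.714 in limma). With 217182_at they were 126, 121 and 102 against 96.2, 100.2 and 83.5, again without overlap (log2 0.31, SE 0.16). The remaining probe set of MUC5AC overlapped (log2 0.36).

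MUC6, another gastric gel-forming mucin, had signals of 83.2 to 116 on treated and 81.8 to 136 on control arrays (log2 -0.18, SE 0.26). MUC5B, a mucin of the airways and salivary glands, was at background on all but 1 treated and 1 control array with its main probe set (log2 0.71, SE 0.77). Its other probe set, an _x_at one, had 3.9 to 14.2 on treated and 29.7 to 41.8 on control arrays, so that every treated array was lower. This passed the unadjusted p of 0.025 in limma (log2 -1.95, SE 0.45, adjusted p = 0.485). All treated signals and 1 of the control signals there lie below the TrpnX level of their array. According to the RefSeq annotation MUC2, MUC5AC and MUC5B lie side by side in the genome, and no direction is common to their probe sets.

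None of the 8 membrane mucins separated the groups with its main probe set. MUC17, a mucin of the intestinal brush border, had the largest absolute change of those above background, with 62.3, 38.2 and 37 on treated and 30.5, 31.1 and 44.5 on control arrays. One treated array was high and the other 2 lay within the control range, so that the log2 fold change of 0.35 (SE 0.28) is not larger than the spread. It counts as above background through the treated arrays alone, since only 2 control arrays exceeded TrpnX. MUC1, which is overexpressed and underglycosylated in many carcinomas, had 509, 427 and 478 on treated and 400, 929 and 546 on control arrays, control replicate 2 being the highest of all (log2 -0.32, SE 0.34). MUC13, an abundant mucin of the colon surface, had 2190 to 2630 and 1607 to 2618 (log2 0.30, SE 0.23). MUC20 had 894 to 1160 and 936 to 1584 (log2 -0.22, SE 0.25), and its 4 probe sets ranged from -0.22 to -0.13. MUC12 had 113 to 151 and 149 to 186 (log2 -0.25, SE 0.19). Its second probe set was higher after treatment at an unadjusted p under 0.025 (log2 0.83, adjusted p = 0.544 in limma), but all its signals were between 2.3 and 7.2, below TrpnX.

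MUC3A was above TrpnX on 2 arrays of each group with its main probe set (log2 -0.95, SE 0.51), while its _x_at probe set was above it on all 6, with 203 to 289 after treatment and 51.1 to 260 in control cells (log2 0.77, SE 0.68). MUC4, of which the array has 6 probe sets, had signals of 12.9 to 55.2 with the main one (log2 0.23, SE 0.68). Its _x_at probe set 235055_x_at was above TrpnX on all 6 arrays, with 62.6, 127.5 and 78.3 after treatment and 77.1, 34.1 and 59.1 in control cells. These overlapped (log2 0.66, SE 0.41). Probe set 217109_at of MUC4 is in the list of transcripts that the study chose on these same arrays, so its direction is no independent evidence. It had 35.7, 7.8 and 19.7 on treated and 5.3, 58 and 12.5 on control arrays, which overlap (log2 0.14, SE 0.98). MUC16, the CA-125 antigen, had signals of 2 to 5.5 on all arrays and was not detected above background.

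The trefoil factors, small peptides that protect and help repair the mucosa, did not move together. TFF1, normally a product of the gastric surface, had 603, 464 and 532 on treated and 285, 383 and 334 on control arrays. The lowest treated array lay above the highest control array, and the mean signal was 1.60-fold higher (533 ± 69.5 against 334 ± 49.1, SD, n = 3 each). The log2 fold change was 0.68 (SE 0.19, adjusted p = 0.576 in limma), and between 0.57 and 0.78 when 1 array was left out. The p passed 0.025 without 5-Aza replicate 2 and without control replicate 2, and it missed it without any of the other 4 arrays. A block for the replicate number, median centring and the SAM-type statistic each ended this call as well. TFF3, the trefoil peptide of intestinal goblet cells, had 1167, 1184 and 1209 on treated and 1739, 1123 and 2488 on control arrays. The treated arrays were nearly equal and lay inside the wide range of the controls (log2 -0.51, SE 0.31, adjusted p = 0.793 in limma). Without control replicate 2 the value was -0.81 and passed the unadjusted p of 0.025. TFF2 had 36.7, 118 and 60.5 against 18.5, 20.3 and 105, with control replicate 3 among the treated values (log2 0.88, SE 0.81). That array held its only control signal above TrpnX. TFF3, TFF2 and TFF1 follow each other in the genome in the RefSeq annotation.

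**Figure D2:**
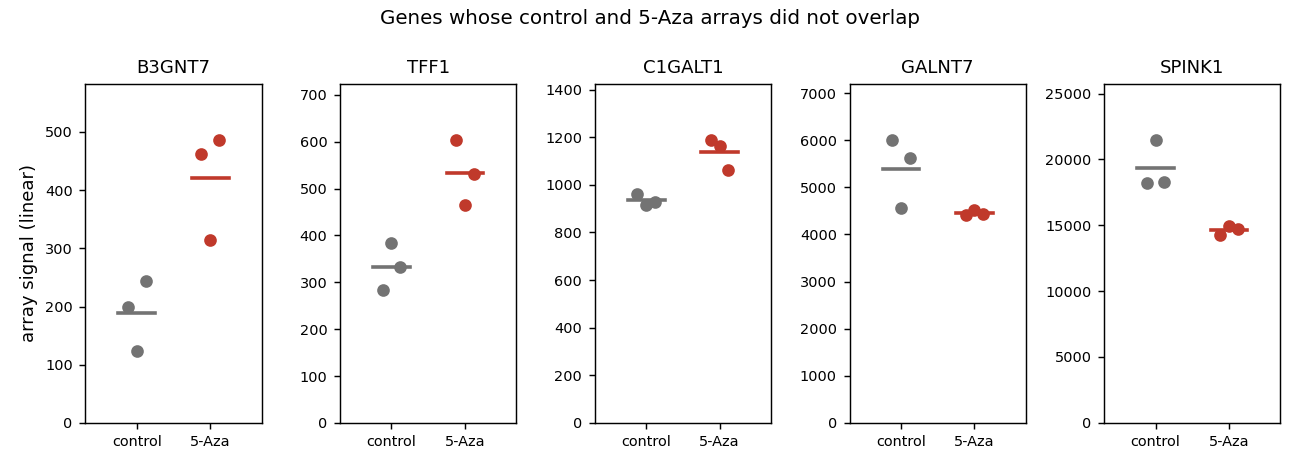
Array signals (y axis, linear, from 0, a scale for each gene) of the 5 genes whose control (grey) and 5-Aza-treated (red) arrays did not overlap. Each point is 1 array, with 3 arrays in a group, and horizontal bars mark the means. B3GNT7, TFF1 and C1GALT1 are higher after treatment and GALNT7 and SPINK1 lower, with a narrow gap for GALNT7 (4512 against 4559).

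Of the other secreted proteins, SPINK1 had 14225, 14976 and 14733 on treated and 18237, 21461 and 18251 on control arrays. Every treated array was lower, and the control mean was 1.32-fold that of treated cells (log2 -0.40, SE 0.15, adjusted p = 0.669 in limma). The value lay between -0.43 and -0.32 when 1 array was left out. SPINK4, a related peptide of goblet cells, had 242, 333 and 299 on treated and 516, 212 and 871 on control arrays. The control range again enclosed the treated values (log2 -0.66, SE 0.54), and without control replicate 2 the value was -1.21. FCGBP, the IgG Fc binding protein of mucus, had 586, 699 and 714 on treated and 538, 99.9 and 728 on control arrays. Its log2 fold change of 0.96 (SE 0.78) rests on control replicate 2, without which it was 0.084. The study's text counts FCGBP among the transcripts selected with these arrays, so its direction is no independent evidence. REG4, a lectin of the regenerating gene family, had 13659, 14953 and 15553 against 20936, 9644 and 22075 (log2 -0.16, SE 0.36). All treated arrays lay between control replicate 2 and the other controls. Without that array its value was -0.55. CLCA1, a protease of the mucus gel, and ZG16, a lectin that binds bacterial cell walls, were above background on 3 and 2 of the 6 arrays and had log2 fold changes of 1.08 (SE 1.06) and 0.10 (SE 0.93).

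AGR2 and AGR3, disulfide isomerases of the endoplasmic reticulum (AGR2 is needed to make MUC2), and CREB3L1, a membrane-bound transcription factor of secretory cells, had negative log2 fold changes. CREB3L1 had 1769, 1846 and 2042 on treated and 2567, 1450.5 and 3992 on control arrays. The treated values lay inside the control range (log2 -0.39, SE 0.39), and without control replicate 2 the value was -0.77. AGR3 had 3856 to 4831 and 4036 to 6102 (log2 -0.34, SE 0.23). AGR2 had 23909 to 26500 and 24708 to 31674 (log2 -0.14, SE 0.16). None of the 3 passed an unadjusted p of 0.025, with or without any single array.

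Of the 8 O-glycosylation enzymes, B3GNT7 differed most. It encodes an N-acetylglucosaminyltransferase that lengthens sugar chains. Its main probe set (1555962_at) had 461, 314 and 486 on treated and 199, 123 and 244 on control arrays. The groups did not overlap, and the mean signal was 2.23-fold higher after treatment (420.3 ± 93.1 against 189 ± 60.8, SD, n = 3 each). The log2 fold change was 1.18 (SE 0.33, adjusted p = 0.571 in limma) and 0.90 to 1.39 when 1 array was left out. It no longer passed an unadjusted p of 0.025 without 5-Aza replicate 1 (1.10) or 3 (1.06) or without control replicate 1 (1.25) or 2 (0.90). This probe set belongs to the list of transcripts that the study selected on these arrays, so its direction is no independent evidence.

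The 4 probe sets of B3GNT7 did not give the same direction. The _x_at probe set had 370, 341 and 393 against 196, 285 and 197, also without overlap and past the unadjusted threshold (log2 0.72, SE 0.21, adjusted p = 0.579 in limma). Probe set 1552965_a_at went the other way, with 11.3, 5 and 22.9 on treated arrays, all below TrpnX, and 60.2, 55 and 65 on control arrays. It passed the unadjusted threshold as lower, at -2.33 on the log2 scale (SE 0.52, adjusted p = 0.460 in limma), the smallest adjusted p of all 64 probe sets. The fourth (232337_at) overlapped (log2 0.19, SE 0.50). The mean over the 4 probe sets was -0.059, so the direction of B3GNT7 depends on the probe set that is read.

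**Figure D3:**
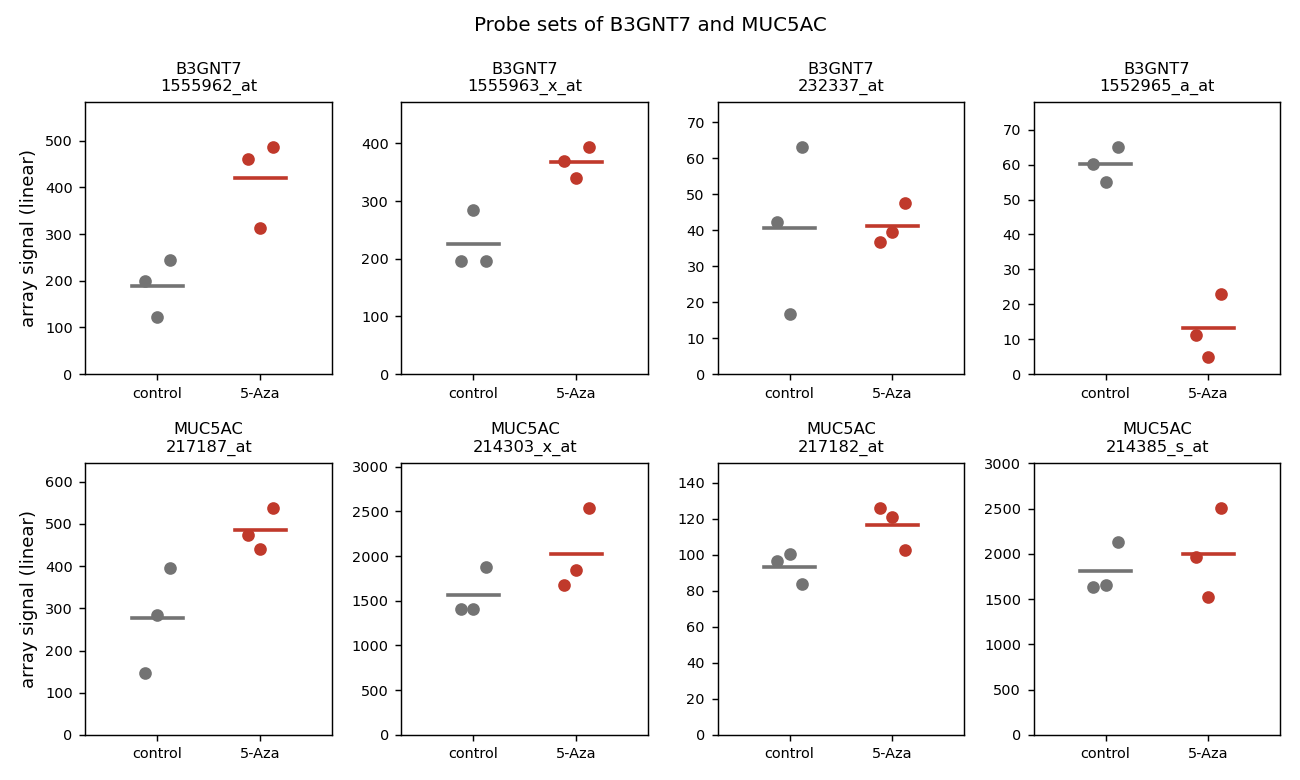
Array signals (y axis, linear, from 0, a scale for each probe set) of the 4 probe sets of B3GNT7 (upper row) and the 4 of MUC5AC (lower row) in control (grey) and 5-Aza-treated (red) cells. Each point is 1 array, with 3 arrays in a group, horizontal bars mark the means, and probe sets run from the highest to the lowest log2 fold change. For B3GNT7 the first 2 are higher after treatment and 1552965_a_at is lower.

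C1GALT1, the galactosyltransferase that makes the core 1 chain, had 1187, 1162 and 1063 on treated and 962, 914 and 927 on control arrays. The lowest treated array lay above the highest control array, by less than the range of the treated arrays, and the signal was 1.22-fold higher (log2 0.28, SE 0.14, adjusted p = 0.743 in limma). Its other probe sets overlapped, with 0.34 and 0.15, and after median centring the main one had 0.095. GALNT7, which adds GalNAc to peptides that already carry one, had 4412, 4512 and 4443 against 6003, 4559 and 5625. Control replicate 2 lay just above the treated arrays (log2 -0.27, SE 0.16, adjusted p = 0.794 in limma), and the second probe set overlapped (-0.050).

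The other glycosyltransferases showed small differences with overlapping arrays. GALNT3 and GALNT12, which start O-glycan chains, had log2 fold changes of -0.054 (SE 0.14) and -0.0099 (SE 0.13). Their signals were 3884 to 4009 against 3810 to 4445, and 2962 to 3108 against 2928 to 3200. ST6GALNAC1, the sialyltransferase that makes the sialyl-Tn antigen, had 272 to 350 against 294 to 375 (-0.096, SE 0.18). GCNT3, the branching enzyme of mucin type, had 8127 to 10118 against 8216 to 12909 (-0.11, SE 0.23). B3GNT6, which makes the core 3 chain of normal colon mucins, was above background on 1 treated and 1 control array (0.15, SE 0.79).

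In many of these genes, as in most of all genes, the control arrays spread more than the treated ones. The SD of the log2 signals was larger in control than in treated cells in 24 of the 32 genes (75.0%), and in 60.9% of all genes. The same held for 73.7% of 19 goblet cell regulators, 70.0% of 10 enteroendocrine markers and 52.9% of 34 goblet secretion genes. It is therefore not particular to the 32 genes. The median SD over the 32 genes was 0.38 in control and 0.19 in treated cells, where all genes had 0.29 and 0.22. In 10 genes (31.2%, all genes 22.7%) the 3 treated arrays lay inside the range of the controls. They were MUC1, MUC2, MUC6, TFF3, FCGBP, REG4, SPINK4, GALNT3, GALNT12 and CREB3L1.

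Control replicate 2 was the lowest of the 6 arrays in 10 genes (31.2%, all genes 22.8%) and the highest in 6 (18.8%, all genes 18.5%). The low ones were MUC2, MUC13, TFF3, FCGBP, REG4, SPINK4, GALNT3, B3GNT7, C1GALT1 and CREB3L1. The high ones were MUC1, MUC6, MUC20, SPINK1, GALNT12 and GCNT3. Goblet cell products did not share 1 direction on this array. CLCA1 had 54 there and 6.9 and 5.5 on the other controls, and MUC5AC, AGR2, AGR3 and ZG16 were lowest on other arrays. The highest control signal was 7.69 times the lowest for MUC2, 7.29 times for FCGBP, 4.12 times for SPINK4, 2.75 times for CREB3L1, 2.29 times for REG4 and 2.22 times for TFF3. On the treated arrays these ratios were 1.25, 1.22, 1.38, 1.15, 1.14 and 1.04. When control replicate 2 was left out, TFF1 was higher and TFF3, REG4 and SPINK4 were lower at an unadjusted p under 0.025. In this setting B3GNT7 missed the threshold, and of all 54613 probe sets 1722 were higher and 714 lower. There 5 genes lay above and 8 below their controls. The share of all genes was not computed for this setting, and no result about these genes is read from those counts. With all 6 arrays the differences of TFF3, REG4 and SPINK4 were smaller than the range of their controls.

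**Figure D4:**
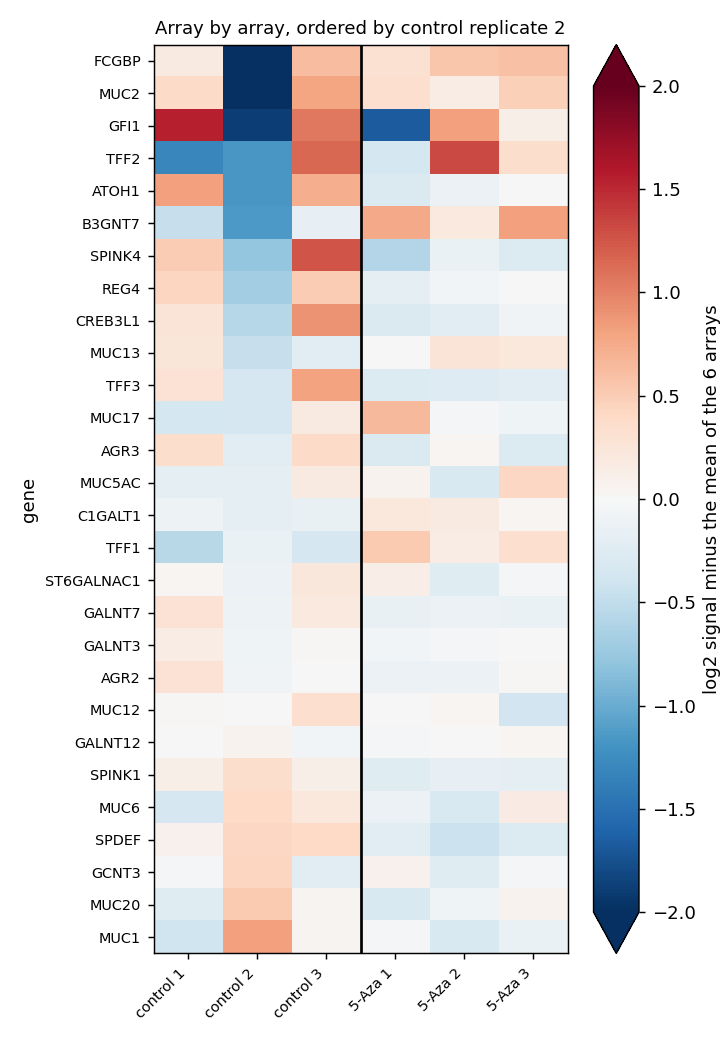
Log2 signal of each array (columns) minus the mean of the 6 arrays, for the 25 genes above background and the regulators ATOH1, GFI1 and SPDEF (rows, ordered by control replicate 2). The colour scale runs from -2 to 2, and its pointed ends stand for values beyond it. FCGBP, MUC2, GFI1 and ATOH1 are low on control replicate 2 and MUC1 is high there, while the treated arrays differ little from each other except for GFI1 and TFF2. GFI1 was above TrpnX on only 2 arrays of each group. Its signals on control replicate 2 (14.6) and 5-Aza replicate 1 (17.2) were at background.

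Regulators of goblet cell formation were read from a list of 20 genes, 19 of them measured. Of these 4 had positive and 15 negative log2 fold changes (median -0.19, and 2 and 17 after median centring), 0 were higher and 1 was lower at an unadjusted p under 0.025, and control replicate 2 was the lowest array in 8 (42.1%). The lower one was SPDEF, a transcription factor needed for goblet cell maturation, with 1054, 904 and 1006 on treated and 1293, 1624 and 1608 on control arrays. All treated arrays were below all controls (log2 -0.60, SE 0.17, adjusted p = 0.568 in limma). All 5 probe sets of SPDEF have the suffix _x_at, and of the other 4, with log2 fold changes of -0.94, -0.58, -0.35 and 0.11, the -0.58 and -0.35 ones separated the groups in the same direction. ATOH1, the factor that commits cells to the secretory lineage, had 371, 418 and 452 on treated and 801, 200.3 and 750 on control arrays, the treated ones lying inside the control range (log2 -0.26, SE 0.58). SOX9 was the only regulator with every treated array above the controls (log2 0.29, SE 0.14).

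Other enzymes of the O-glycan pathway came from a list of 48 genes, of which 47 were measured. None passed an unadjusted p of 0.025 in limma (0 higher and 0 lower, all genes 3.0% and 0.9%). Of the 47, 30 were positive (63.8%, all genes 54.9%) and 17 negative with a median of 0.086. Median centring turned this to 18 and 29 with -0.10, where all genes had 6708 and 13067. All treated arrays exceeded all control arrays in 7 of them (GALNT1, GALNT8, GCNT2, B4GALT1, ST3GAL2, ST6GALNAC3 and SLC35A1), against 9.91% of all genes. They lay below in 0, against 6.9% of all genes. The largest change of these 7 was that of GALNT8, with 76.3, 73 and 91.2 against 24.1, 38.3 and 60.9 (log2 1.04, SE 0.36, adjusted p = 0.645 in limma). Its signals on control replicates 1 and 2 lay close to the TrpnX levels of those arrays (23.8 and 33.5).

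Of 8 measured other mucins and mucin-like genes, MUCL1, a small mucin of breast and sweat glands, was higher after treatment and 0 were lower at an unadjusted p under 0.025. MUCL1 had 84.2, 34.3 and 31.3 on treated arrays, each above TrpnX, and 3.4, 4.1 and 3.8 on control arrays, all at background. The log2 fold change of 3.27 (SE 0.41, adjusted p = 0.223 in limma) therefore depends on the constant added to the signals. The 8 genes had 6 positive (75.0%, all genes 54.9%) and 2 negative values, which median centring turned to 3 and 5. MUC19, a gel-forming mucin of salivary glands, was lower at this threshold after median centring (-1.65) and quantile normalization (-1.68), with all treated signals below TrpnX.

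Among 34 measured genes of goblet cell secretion and mucus assembly, 2 were higher and 0 lower at the same threshold (all genes 3.0% and 0.9%). Their values were positive for 12 (35.3%, all genes 54.9%) and negative for 22, with a median of -0.062. ITLN1, a lectin of goblet cells that binds microbial sugars, had 51.4, 58.9 and 51.5 on treated and 29.8, 36 and 25.6 on control arrays (log2 0.81, SE 0.18, adjusted p = 0.472 in limma). TGM3, a transglutaminase, had 62.5, 38.3 and 77.1 against 32.1, 31.4 and 23 (log2 0.97, SE 0.31, adjusted p = 0.611 in limma). Control signals of both lay close to TrpnX, and neither passed after median centring or quantile normalization. After median centring 0 were higher and 2 lower, GMDS (-0.56), an enzyme of GDP-fucose synthesis, and SLC4A4 (-0.59), a bicarbonate cotransporter, with 9 positive and 25 negative values (median -0.25). Without centring, every treated array was above every control array in 6 of the 34 genes (all genes 9.91%) and below in another 6 (all genes 6.9%). Of the 6 above, BEST2 and LYPD8 had all control signals below TrpnX, and TGM3 had all but 1 below it.

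Of the 14 enterocyte markers, which belong to the absorptive cells of the same epithelium, ANPEP was higher (log2 0.51, SE 0.16) and FABP1 lower (log2 -0.85, SE 0.25) at an unadjusted p under 0.025. ANPEP, which is in the list that the study selected on these arrays, missed the threshold after median centring and quantile normalization, and FABP1 passed it under both. Every treated array was above every control array in 5 of these markers (all genes 9.91%) and below in 1 (all genes 6.9%). Of the 5, AQP8 was below TrpnX on all 6 arrays and APOA4 on all controls, and SI exceeded it on 1 control array. The median was 0.42, and 0.23 after median centring, with 7 of the 14 markers not above TrpnX on all arrays of a group. Of the 5 Paneth cell markers, LYZ and PLA2G2A were above background, and 0 passed the threshold. CEACAM5, an adhesion molecule of the colon epithelium list, was higher at an unadjusted p under 0.025 (log2 0.96, SE 0.17, adjusted p = 0.319 in limma). Its other probe set, above TrpnX on all 6 arrays, overlapped and had the opposite sign (log2 -0.34, SE 0.38). VWF of the endothelium list had 24.5, 68.9 and 72.2 on treated and 11.2, 20.4 and 7.7 on control arrays, where all controls and 1 treated array were below TrpnX. It passed the unadjusted threshold (adjusted p = 0.579 in limma), but not after median centring or quantile normalization, and its other probe set overlapped.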

How the data were processed

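Total RNA of 5-Aza-treated and control HT-29 cells was measured on 6 HGU133 Plus2.0 microarrays, 3 per group, grouped by the treatment in the labels. The deposited table holds 1 linear intensity for each of 54675 probe sets on each array, as made by the authors. The submitters' notes name the affy package, whose version, background correction and summary method are not given in the sources used here. With 2% of the values removed at each end, every array has a mean of 500, so the arrays had been scaled.

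Signals were analysed as log2(signal + 1). Without 62 control probe sets, 54613 entered limma 3.58.1 (R 4.3.3), with no covariates and Benjamini-Hochberg adjustment over the whole table. The unadjusted threshold of 0.025 is that of the study's methods. In the platform annotation 41097 probe sets have 1 symbol, 1801 several and 11777 none. The number of arrays limits the precision. On 5 simulated data sets limma recovered 51.8% of probe sets changed by 1 on the log2 scale and 75.6% of those changed by 2 at the unadjusted threshold, and 0% and 14.2% at an adjusted p under 0.05.

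All 32 genes are named. Values are given by array where the unadjusted threshold was passed, where groups did not overlap or where the change was the largest of its role above background, and for some genes beyond this rule, chosen after their values were seen. The genes and lists were chosen with earlier results of these data known. Alternatives were a SAM-type statistic, trend and robust variance, other scalings, another constant, filters, averaged probe sets, a replicate block and leaving out each array. Same-numbered arrays of the groups were uncorrelated (-0.012 to 0.0097). This gave no sign of pairing by number but cannot exclude it, and the main fit holds no block for it.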

Additional observations from a re-analysis of the deposited data

How the results depend on the processing

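The count of 2 genes higher at an unadjusted p under 0.025 was 1 with the SAM-type statistic (B3GNT7), 1 with probe sets of a gene averaged (TFF1), 1 after median centring (B3GNT7) and 1 with the replicate block (B3GNT7), and ranged from 0 to 2 when 1 array was left out. It was 0 without 5-Aza replicate 1, 5-Aza replicate 3 or control replicate 1, and 1 without control replicate 2 or 3. The count of 0 lower genes was 1 (SPINK1) with trend and robust variance, 1 after median centring and 1 when weaker probe sets (below the median) were dropped, and ranged from 0 to 3 without 1 array, the 3 coming from leaving out control replicate 2. The number of the 32 genes past an adjusted p under 0.05 was 0 in every alternative run. The count of 3 genes above all controls ranged from 3 to 6 without 1 array (6 without control replicate 3, 5 without control replicate 2). That of 2 genes below was 1 with the mean of probe sets and 8 after median centring, and ranged from 2 to 8 without 1 array (8 without control replicate 2, 5 without 5-Aza replicate 2, 4 without control replicate 1). The shares of all genes were not computed for these settings, and groups of fewer arrays separate more easily. The median of the 32 genes ranged from -0.12 to 0.017 without 1 array. The causes were not tested.

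The direction of single genes turned in these cases. With averaged probe sets the log2 fold change was -0.62 for MUC5B, 0.59 for MUC6, 0.29 for MUC12, -0.65 for B3GNT6 and -0.059 for B3GNT7. After median centring it was -0.060 for MUC5AC, -0.082 for ZG16 and -0.039 for B3GNT6. After quantile normalization it was -0.0025 for MUC4, -0.15 for ZG16, 0.014 for GALNT12 and -0.070 for B3GNT6. Leaving out 1 array gave ranges of -0.60 to 0.0082 for MUC1, -0.26 to 1.19 for MUC2, -0.37 to 0.71 for MUC4, -0.052 to 0.31 for MUC5AC, -0.11 to 1.28 for MUC5B, -0.63 to 0.69 for ZG16, -0.55 to 0.049 for REG4, -0.11 to 0.0031 for GALNT3, -0.039 to 0.026 for GALNT12, -0.65 to 0.56 for B3GNT6 and -0.25 to 0.075 for GCNT3. Of the values of single genes under the alternatives, 364 kept direction and call, 10 lost the call, 5 gained one and 28 turned. The replicate block left every fold change as it was, and with it TFF1 missed the unadjusted threshold. Signals near TrpnX limit what can be read from the main probe sets of the 7 genes not above it on all arrays of a group.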
